A study of Homo sapiens with 8 samples.

Results

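The genes described here are 60 genes of mitosis and the spindle checkpoint, grouped by function. They were chosen with earlier results of these data known. Each was represented by the probe set annotated to that gene alone that had the highest mean log2(signal + 8) over the 8 arrays. All 60 had such a probe set, among 19776 genes in all. The signal is the intensity of a probe set on an Affymetrix HG-U133 Plus 2.0 array. Of the 60 genes, 58 lay in the brighter part of the table, the 9888 genes with a mean above the median over genes, and were tested. INCENP and CDC20 lay below it and were not tested.

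RNA came from 4 established human neuroblastoma cell lines, NB-39-nu, then SH-SY5Y, SK-N-BE and last SK-N-DZ, the order in which values are listed below. In each line 1 culture received lentivirus of the pLKO.1 control (shCont) and 1 received lentivirus carrying shBMI1-1, a short hairpin RNA against the Polycomb gene BMI1. Both arms were therefore infected, only 1 hairpin was used, and each line contributed 1 control and 1 knockdown array, so the lines are the replicates. Cells were harvested 8 to 14 days after infection, and which day applied to which culture is not given in the labels. The series asked which genes change when BMI1 is lost, in a study of how BMI1 protects these cells from death after DNA damage. Within a line, an effect of the hairpin cannot be told apart from a difference in harvest day or growth state between the 2 cultures.

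Mitosis begins when cyclin B activates the kinase CDK1. Kinases of the Polo and Aurora families then build the spindle, kinetochores tie chromosomes to microtubules, and the spindle checkpoint holds back the anaphase-promoting complex until every chromosome is attached. Most of these genes are transcribed in a burst late in the cell cycle. Many of their promoters carry a short element, the cell cycle genes homology region (CHR), which recruits the MuvB complex together with its repressor or activator partners, and often CCAAT boxes, which bind NF-Y. In tumour lines the summed RNA of this module is a common readout of the share of cycling cells. In RNA of a whole culture, fewer cells in mitosis and less RNA per cell cannot be told apart.

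As deposited, every array had the same trimmed mean signal (500), and median signals ran from 69.9 to 79.8. The target was checked first. The BMI1 probe set, annotated also to the read-through gene COMMD3-BMI1, read 7175, 5169, 3647 and 3345 in control cells and 1765, 3386, 2371 and 1318 after knockdown. It kept 24.6% of its control signal in NB-39-nu and 39.4% in SK-N-DZ. More was left in SH-SY5Y (65.5%) and in SK-N-BE (65.0%). The mean log2 ratio was -1.15 ± 0.67 (SD, n = 4 lines; limma adjusted p = 0.276), lower in 4 of 4 lines. Of 7 measured markers of adrenergic neuroblastoma, 6 lay above the brightness filter, PHOX2A, GATA3, GATA2, ISL1, DBH and HAND2, while TH (2.80 to 172) lay below it. The summed signal of the 7 was 26385 to 69707 over the control and 27349 to 78555 over the knockdown arrays. Of 8 mesenchymal markers, 7 lay above it and PRRX1 below it, with a summed signal of 16158 to 51779 over the control arrays and 19909 to 70448 over the knockdown arrays, both sums over all 8. Within lines the mesenchymal sum was higher on the knockdown array in 4 of 4 lines. The rise was largest in NB-39-nu, at 49477 in control and 70448 in knockdown cells. There VIM read 40256 and 58620.3 and FN1 2804 and 5210.1, but TWIST1 2847 and 2738 and YAP1 2622 and 2606. The sum rests mostly on its brightest genes, and single markers moved both ways. In SK-N-DZ VIM read 112 and 14.0, and in SK-N-BE THY1 read 3638 and 3467. The adrenergic sum was lower on the knockdown array in SK-N-DZ (44714.5 and 37363) and higher in the other lines. The part of these markers in the results below was not tested. None of the measured Schwann (S100B, SOX10) and blood (PTPRC, CD3E, CD14) markers lay above the brightness filter. The 3'/5' signal ratio of control probes is a sign of RNA quality. It lay between 0.975 and 1.12 for GAPDH but was higher for ACTB, between 3.81 and 6.01.

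After BMI1 knockdown the mitotic genes were lower together in NB-39-nu and higher together in SH-SY5Y. In NB-39-nu 57 of 58 tested members were lower on the knockdown array, with a median log2 ratio of -0.53, or 0.693 of the control level. In SH-SY5Y 56 of 58 were higher, and the median was 0.53, or 1.44 times the control level. The shifts in the other two lines were smaller. In SK-N-BE 44 of 58 were lower (median -0.14), and in SK-N-DZ 48 were higher (median 0.17). Each is the value of 1 array pair and has no replicate within its line.

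Of all tested genes, 47.2% were lower in NB-39-nu and 52.4% higher in SH-SY5Y. In SK-N-BE 47.2% were lower, and in SK-N-DZ 55.1% were higher and 44.9% lower. The median ratio of all tested genes was 0.028, 0.017, 0.018 and 0.034 in the 4 lines. At least 1.5-fold lower in NB-39-nu were 26 of 58 members against 8.5% of all tested genes. In SH-SY5Y 23 of 58 were at least 1.5-fold higher, against 4.88%, and 0 were 1.5-fold lower (background 3.8%). In SK-N-BE 0 members were 1.5-fold lower (background 3.35%) and 1, CDK1, was 1.5-fold higher (4.8%). In SK-N-DZ 2, PLK1 and KIF18A, were 1.5-fold higher (background 4.32%) and 0 were 1.5-fold lower (4.39%). A total of 55 members were lower in NB-39-nu and also higher in SH-SY5Y, where 26.2% of all tested genes were. The complete order of signs, lower in NB-39-nu and SK-N-BE and higher in SH-SY5Y and SK-N-DZ, held for 33 of 58 members and for 7.96% of all tested genes. These sign patterns were chosen after the values were seen.

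**Figure D1:**
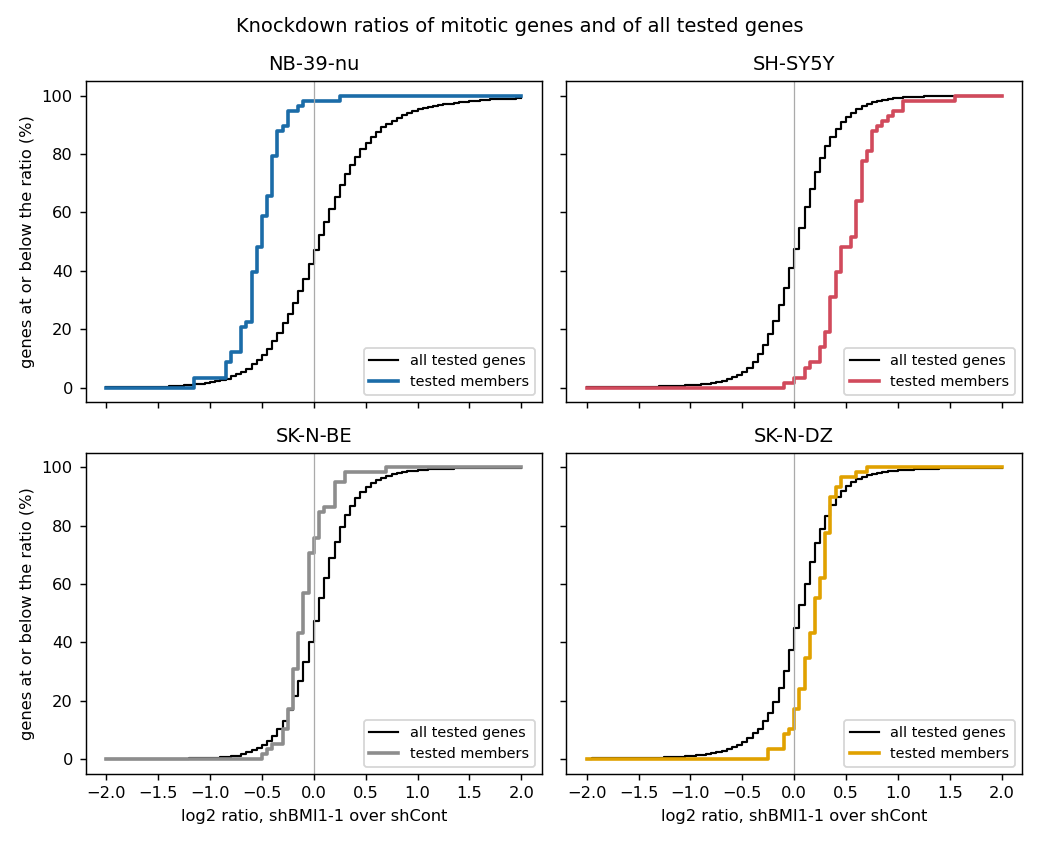
Share of genes (y axis, %) at or below each log2 ratio of shBMI1-1 over shCont (x axis) in each of the 4 lines, for the 58 tested members (coloured step) and all 9888 tested genes (black step). The coloured step lies left of the black one in NB-39-nu (median -0.53) and right of it in SH-SY5Y (median 0.53), with smaller shifts in SK-N-BE and SK-N-DZ.

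Averaged over the 4 lines, the opposite signs left a mean near 0. The median over members of the mean ratio was -0.0052, with an SD of 0.45 over the 4 line medians, beside 0.032 for all tested genes. It was 0.18 without NB-39-nu and -0.13 without SH-SY5Y, so its sign rested on which lines were included. In the limma fit with cell line as a block, 0 of 58 members passed an adjusted p of 0.05, where 0.0101% of all tested genes (1 of 9888) did. At an unadjusted p under 0.05 there were also 0 members, against 9.33% of all tested genes, and the lowest adjusted p was 0.634. The mean change of tested members ran from -0.27 for NCAPH to 0.28 for CDC25C. Control and knockdown signals overlapped over the lines for 58 of 58 members, where 0.435% of all tested genes did not overlap. A single member, BUB3, had the same sign in all 4 lines, being lower, where 18.2% of all tested genes had 1 sign in 4 lines, 7.65% lower and 10.6% higher. With NB-39-nu left out, 14 members had the same sign in the other 3 lines, with SH-SY5Y left out 10, and with SK-N-BE left out 2.

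Most members followed each other across lines. Over the 4 line ratios, the Pearson correlation of a member with the median of the other tested members had a median of 0.96 and was above 0.9 for 49 of 58. This describes 4 points that come from the same 8 arrays, and the share of all tested genes above 0.9 was not computed. The lowest values were those of CDK1 (0.11), CDCA8 (0.29) and BUB3 (0.47). Other probe sets of the same genes give a check on single probe sets. Of 114 single-gene probe sets of the 60 members, 34 were bright enough and not already used, from 23 genes. Of these 34, 31 were lower in NB-39-nu (median -0.32) and 30 higher in SH-SY5Y (median 0.39). In SK-N-BE 19 were lower (median -0.057) and in SK-N-DZ 25 higher (median 0.25).

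The 3'/5' ratio of the ACTB control probes was 6.01, 4.71, 3.81 and 5.16 on the control arrays and 4.82, 5.25, 4.44 and 4.88 on the knockdown arrays. It moved with the member median in NB-39-nu and SH-SY5Y and against it in the other lines, and its part in the ratios was not tested. The lines with the least BMI1 signal left, NB-39-nu and SK-N-DZ, had member medians of opposite sign, as had the lines with the most, SH-SY5Y and SK-N-BE.

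To show what these genes share in sequence, promoters were read from RefSeq windows of GRCh38.p14 that span 250 bases before to 50 after each gene's start, and 53 of the 60 members matched. AURKA, BIRC5, BUB3, FOXM1, TPX2, TTK and UBE2C did not and were not analysed here for sequence. The windows were searched on both strands for the CHR hexamer TTTGAA and for CCAAT. The hexamer was in 44 of 68 member promoters (64.7%) and in 15.2% of all 35116 promoters. CCAAT was in 67.6% of member promoters and 34.6% of all, and both were in 50% and 5.9%. Mitotic genes outside these 60 lay between, with the hexamer in 29.8% of 131 promoters, CCAAT in 49.6% and both in 16%. The arrangement is therefore not particular to the members. Some genes have several windows; by gene, 40 of 53 members had a hexamer, against 18.2% of all genes. Of the 56 hexamer matches in members, 29 (51.8%) began within the 50 bases before the start site, where 14.7% of matches in all promoters did. The 120 bases before the start are printed for 5 members to show this arrangement, 5′ to 3′ on the gene's strand, with CHR and CCAAT matches of either strand in capitals. CCNB2 (chr15:59105026-59105145, plus strand), PLK1 (chr16:23678769-23678888, plus) and CKS2 (chr9:89311075-89311194, plus) have 1 hexamer each downstream of CCAAT boxes. MKI67 (chr10:128126424-128126543, minus) has 2 hexamers, the second overlapping a CCAAT box read on the other strand. CCNB1 (chr5:69167030-69167149, plus) is shown as a member with 2 CCAAT boxes and no TTTGAA in this window.
CCNB2: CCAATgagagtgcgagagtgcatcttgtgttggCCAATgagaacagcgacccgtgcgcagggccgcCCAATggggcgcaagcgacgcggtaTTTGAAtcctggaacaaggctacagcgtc
PLK1: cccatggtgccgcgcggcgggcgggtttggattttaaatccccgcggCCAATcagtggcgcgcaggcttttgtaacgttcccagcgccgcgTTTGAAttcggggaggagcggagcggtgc
MKI67: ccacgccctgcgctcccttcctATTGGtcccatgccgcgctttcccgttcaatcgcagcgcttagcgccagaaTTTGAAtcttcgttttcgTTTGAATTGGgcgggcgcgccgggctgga
CKS2: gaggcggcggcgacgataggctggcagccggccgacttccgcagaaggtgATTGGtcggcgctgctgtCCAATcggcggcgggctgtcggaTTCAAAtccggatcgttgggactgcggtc
CCNB1: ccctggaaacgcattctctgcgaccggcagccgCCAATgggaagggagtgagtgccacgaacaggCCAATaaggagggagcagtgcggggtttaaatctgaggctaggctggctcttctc
A match is a string of letters and no evidence of binding. The medians of the 38 tested members with it were -0.52, 0.43, -0.12 and 0.16 in the 4 lines, beside those of the 13 without it, -0.60, 0.57, -0.14 and 0.20.

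The lines also differed in how much mitotic RNA they held before knockdown. In control cells SH-SY5Y was the lowest of the 4 lines for 56 of 58 members, against 24% of all tested genes. The exceptions were SMC2 and SMC4, the ATPases shared by both condensins, which were lowest in NB-39-nu. For SMC4 this rests on 1 probe set, since its other bright probe set was lowest in SH-SY5Y. Of the 34 other bright probe sets of members, 28 were lowest in SH-SY5Y and 4 in NB-39-nu, of BUB3 and SMC2. NB-39-nu was highest for 22 members, SK-N-DZ for 19 and SK-N-BE for 17. After knockdown SH-SY5Y was lowest for 37 and NB-39-nu for 18, and SK-N-DZ was highest for 43. The test of lines, limma's F test on all 8 arrays with condition as a covariate, sets line differences against the spread of the knockdown ratios. It called 54 of 58 members at an adjusted p under 0.05, where 79.9% of all tested genes passed. A line difference was therefore common to most genes on these arrays. The members that did not pass were PLK1, NEK2, CENPF and KIF15.

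A contrast of SH-SY5Y with the mean of the other lines was chosen after the values were seen. It used all 8 arrays, control and knockdown, with condition as a covariate. It called 49 of 58 members lower and 0 higher (limma, adjusted p under 0.05), against 21.7% of all tested genes lower and 30.3% higher. The median difference, over control and knockdown arrays together, was -0.94 on the log2 scale. SH-SY5Y is also the line with little MYCN RNA: the control signals of this oncogene were 59743, 449, 43219 and 50064 in the 4 lines. Line and MYCN level cannot be told apart here.

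**Figure D2:**
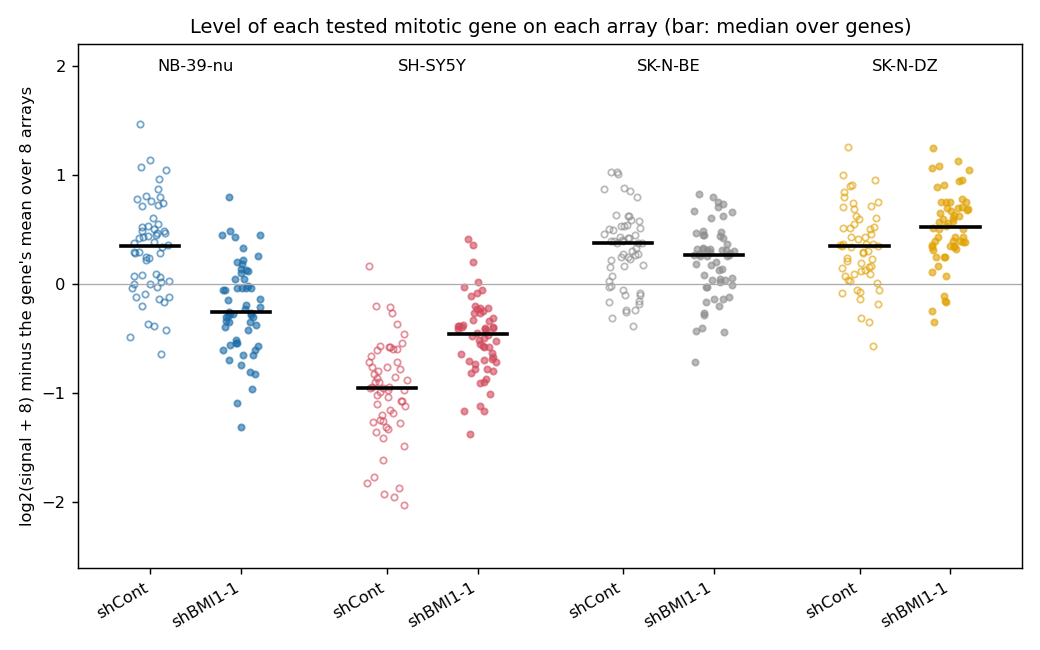
Level of each of the 58 tested members on each array, as log2(signal + 8) minus that gene's mean over the 8 arrays (y axis), by line and condition (x axis); open points are control and filled points knockdown cells, and bars are medians over genes. The medians in NB-39-nu are 0.35 in control and -0.26 in knockdown cells, and those in SH-SY5Y are -0.95 and -0.46.

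Below, the members are taken by role. Signals are listed in the order of lines given above, and so are the ratios, each a log2 ratio of shBMI1-1 over shCont. In the test of lines every member below passed except PLK1, NEK2, CENPF and KIF15 and the untested INCENP and CDC20. Signals of different probe sets are not comparable with each other.

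The 13 regulators of entry into mitosis had median ratios of -0.43, 0.61, -0.090 and 0.30. All 13 were lower in NB-39-nu and all 13 higher in both SH-SY5Y and SK-N-DZ, while 8 were lower in SK-N-BE. CDK1, the kinase that drives mitosis, read 14262, 9087, 10943 and 18272 in control cells and 13205, 10055, 17463 and 19267 after knockdown. It was the member least like the rest, with a mean of 0.20 ± 0.34 (SD, n = 4 lines; limma adjusted p = 0.642) and its only large ratio in SK-N-BE (0.67). Its other bright probe sets read 0.042 and -0.096 in that line, so the SK-N-BE value rests on 1 probe set. CCNB1, the gene of cyclin B1, read 16195, 1435, 5459 and 9817 in control cells and 10197, 2255, 4317 and 11276 after knockdown. Control cells spanned 11.2-fold between NB-39-nu and SH-SY5Y, the widest range of any tested member (limma adjusted p = 9.0e-05 for lines). CCNB2, the gene of cyclin B2, read 8737, 3582, 7658 and 8068 in control cells and 5616, 5488, 8634 and 9943 after knockdown. Its range over control cells was 2.44-fold. The cyclin genes had near-equal ratios in NB-39-nu (-0.67 and -0.64) and SH-SY5Y (0.65 and 0.61), but differed in sign in SK-N-BE (-0.34 and 0.17). A second bright CCNB1 probe set read -0.68 in NB-39-nu, 0.30 in SH-SY5Y and 0.34 in SK-N-BE. The likeness in SH-SY5Y and the CCNB1 sign in SK-N-BE are therefore uncertain.

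CDC25B, a phosphatase that activates CDK1, read 2687, 1364, 2765 and 1817 in control cells and 2013, 1771, 2597 and 1906 after knockdown. CDC25C, a related phosphatase, read 737, 336, 659 and 1209 in control cells and 603, 692, 679 and 1532 after knockdown. Its SH-SY5Y signal was 2.04 times the control level. Its mean of 0.28 ± 0.56 (limma adjusted p = 0.700) was the highest of the tested members, but 0.032 without SH-SY5Y. PLK1, the Polo kinase of spindle assembly, was dim in SH-SY5Y and read 272, 77.1, 259 and 220.4 in control cells and 204, 155, 179 and 338 after knockdown. Control and knockdown signals overlapped, with ratios of -0.40, 0.94, -0.52 and 0.60. PLK4, the kinase of centriole duplication, read 1372, 1065, 1228 and 1956 in control cells and 927, 1394, 1393 and 2043 after knockdown. AURKA, the Aurora kinase of spindle poles, read 5729, 907, 3943 and 5018 in control cells and 4655, 1482, 3418 and 6178 after knockdown. NEK2, a centrosome kinase, read 3929, 1871, 4814 and 3094 in control cells and 2111, 2791, 4372 and 4091 after knockdown. All 3 were lowest in SH-SY5Y among control cells, and NEK2 had the lowest NB-39-nu ratio of this role, -0.89. The other bright NEK2 probe set read -0.78 in NB-39-nu but 0.049 in SH-SY5Y, where the one used read 0.57.

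CKS1B and CKS2 encode small subunits that bind cyclin-dependent kinases. CKS1B read 21164, 11419, 17139 and 23512 in control cells and 15712, 13140.4, 15865 and 26386 after knockdown, and CKS2 read 25371, 5859, 19612 and 15497 in control cells and 19851, 7749, 16753 and 17232 after knockdown. Their ratios ran side by side, at -0.43, 0.20, -0.11 and 0.17 for CKS1B and -0.35, 0.40, -0.23 and 0.15 for CKS2. Between lines they differed: control cells spanned 2.06-fold for CKS1B and 4.33-fold for CKS2, with SH-SY5Y lowest for both. FOXM1, the transcription factor that activates late cell cycle genes, read 3101, 764, 2259 and 1724 in control cells and 1999.7, 1266, 2288 and 2305 after knockdown. MYBL2, which encodes the MuvB partner B-Myb, read 2161, 732, 1139.7 and 2521 in control cells and 1309.7, 1123, 1125 and 3278 after knockdown. Both activators were lower in NB-39-nu (-0.63 and -0.72), higher in SH-SY5Y (0.72 and 0.61) and nearly level in SK-N-BE (0.019 and -0.019).

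The 5 spindle checkpoint genes had median ratios of -0.63, 0.31, -0.15 and 0.019, and all 5 were lower in both NB-39-nu and SK-N-BE. BUB1, a checkpoint kinase at kinetochores, read 2783, 870.4, 2823 and 2489.8 in control cells and 1771, 1109, 2417 and 2629.9 after knockdown. BUB1B, which encodes BUBR1 of the mitotic checkpoint complex, read 6116, 3146, 7856 and 9043 in control cells and 3726, 4231, 7063 and 9188 after knockdown. MAD2L1, which encodes the CDC20 inhibitor MAD2, read 11254, 8670.1, 16822 and 18481 in control cells and 8534, 10779, 15566 and 18464 after knockdown. TTK, the MPS1 kinase at the head of the checkpoint, read 1886, 1119, 2733 and 2173 in control cells and 1217, 1185, 2423 and 2202 after knockdown. In NB-39-nu these 4 had ratios of -0.65, -0.71, -0.40 and -0.63, and in SK-N-DZ they lay within 0.079 of the control value. BUB3, a partner of BUB1 and BUBR1, read 10979, 9915, 13995 and 15845 in control cells and 9677, 9040.4, 13115 and 14862 after knockdown. Its ratios were small, at -0.18, -0.13, -0.094 and -0.092, with a mean of -0.13 ± 0.042 (SD, n = 4 lines; limma adjusted p = 0.634). BUB3 was lower in 4 of 4 lines, but of its other bright probe sets only 1 was lower in 3 lines and none in 4. Its control range, 1.60-fold, was among the 3 narrowest.

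The chromosomal passenger complex corrects faulty attachments of chromosomes and was tested through 3 of its 4 genes, with median ratios of -0.60, 0.79, -0.22 and 0.10. AURKB, its kinase, read 2148, 381, 1247 and 3516 in control cells and 1415, 1114, 1086 and 3499.8 after knockdown. The SH-SY5Y value was 2.88 times its control, the highest single ratio of any tested member, and the control range was 9.06-fold. AURKA and AURKB had the same sign in 3 of 4 lines, with ratios of -0.30, 0.70, -0.21 and 0.30 for AURKA and -0.60, 1.53, -0.20 and -0.0065 for AURKB. BIRC5, which encodes survivin, read 5776, 1787, 6197 and 4489 in control cells and 3459, 3098, 5075 and 5418 after knockdown. Its other bright probe sets read -0.56, -0.044 and -0.010 in NB-39-nu, against -0.74 here. CDCA8, which encodes borealin, read 937, 727, 1908 and 2008 in control cells and 1089, 895, 1637 and 2147 after knockdown. Of the 58 tested members, CDCA8 alone was higher in NB-39-nu (0.21). INCENP, the scaffold, lay under the filter with signals of 6.62, 49.2, 67.7 and 72.2 in control cells and 76.2, 27.1, 45.3 and 127 after knockdown, too dim for a ratio to be read.

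The 8 centromere and kinetochore genes had median ratios of -0.49, 0.49, -0.10 and 0.13, with all 8 lower in NB-39-nu and 7 higher in each of SH-SY5Y and SK-N-DZ. CENPA, the centromeric histone H3 variant, read 1043, 524, 2101 and 934 in control cells and 787, 877, 1793 and 919 after knockdown. CENPE, a kinetochore motor, read 1518, 802, 1696 and 1842 in control cells and 1159, 1012, 1617 and 2413 after knockdown. CENPF, a large kinetochore protein, read 6877, 2997, 4753 and 5915 in control cells and 4203, 4713, 5290.2 and 7521 after knockdown. These were lower by a like amount in NB-39-nu for CENPA and CENPE (-0.40 and -0.39) and by more for CENPF (-0.71). CENPN, which reads the CENP-A nucleosome, read 1725, 967, 4720.1 and 4486 in control cells and 930.4, 1236, 4106 and 4907 after knockdown. Its control level was lower in both NB-39-nu and SH-SY5Y than in the other lines, and other bright CENPN probe sets read 0.10 and 0.11 in NB-39-nu against -0.89 here.

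NDC80, NUF2 and SPC25 encode subunits of the complex that grips microtubules. NDC80 read 1657, 1427, 2128 and 3898 in control cells and 1224, 2084, 2154 and 4528 after knockdown. NUF2 read 6799.5, 3874, 7883 and 5902 in control cells and 4964, 3841, 7939.7 and 6448 after knockdown, and SPC25 read 2468, 1306, 4241 and 3010.2 in control cells and 1389.9, 1778, 3848 and 3182 after knockdown. In SH-SY5Y NUF2 did not follow its partners, at -0.012 against 0.54 and 0.44. ZWINT, a kinetochore protein that binds the checkpoint machinery, read 6983, 3643, 8073 and 13405 in control cells and 4868, 5487, 7009.9 and 13448 after knockdown. Its control range was 3.67-fold, from SH-SY5Y to SK-N-DZ.

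The 15 motors and spindle assembly genes had median ratios of -0.58, 0.51, -0.073 and 0.17. All 15 were lower in NB-39-nu, from -0.87 to -0.26, and all 15 higher in SH-SY5Y, from 0.28 to 0.86. KIF11, the motor that separates spindle poles, read 2923, 1495, 4548 and 5606 in control cells and 2048, 2259, 4323 and 5211 after knockdown. KIF2C, which depolymerises microtubules at centromeres, read 2578, 1134, 3610.3 and 3921 in control cells and 2148, 1770.0, 4376 and 4633 after knockdown. KIF4A, a chromosome motor of the central spindle, read 2459, 1146, 2326 and 2237 in control cells and 1925, 1686, 2053 and 2630.2 after knockdown. All 3 were lowest in SH-SY5Y among control cells, and KIF11 had the lowest of their NB-39-nu ratios, -0.51. KIF14, a motor of cytokinesis, read 1838, 940.2, 2732 and 2407 in control cells and 1391, 1255, 2614 and 2892 after knockdown. The other bright KIF14 probe set had the same signs in NB-39-nu and SH-SY5Y and opposite signs in SK-N-BE (0.69) and SK-N-DZ (-0.14). KIF15, a spindle motor that can stand in for KIF11, read 1328, 901, 999 and 1326 in control cells and 724, 1196, 901 and 1092 after knockdown. KIF15 had the narrowest control range of the members, 1.47-fold, did not pass the test of lines (limma adjusted p = 0.635), and had ratios of -0.87 in NB-39-nu and 0.41 in SH-SY5Y.

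KIF18A, which limits chromosome oscillation, read 831, 297, 779 and 621 in control cells and 527, 441, 768 and 989 after knockdown. It had the highest SK-N-DZ ratio of the tested members, 0.66. KIF20A, a motor of the central spindle, read 3714, 962, 2861 and 4473 in control cells and 2942, 1476, 3237 and 4586 after knockdown. KIF23, the motor subunit of centralspindlin, read 1795, 643, 1515 and 1333 in control cells and 1235, 796, 1562 and 1640.0 after knockdown. The 2 shared a low SH-SY5Y control and NB-39-nu ratios of -0.34 and -0.54. TPX2, the activator of Aurora A, read 4083, 875, 3110.2 and 2760.2 in control cells and 2669, 1453, 2557 and 2989 after knockdown. TACC3, a spindle protein that Aurora A phosphorylates, read 1279, 284, 553 and 943 in control cells and 823, 523, 394 and 1014 after knockdown. Both followed AURKA in sign in all 4 lines, an order of signs that 33 of 58 members had. Their ratios in NB-39-nu were larger (-0.61 and -0.63 against -0.30), and the difference was not tested.

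NUSAP1, which bundles spindle microtubules, read 11159.8, 4328, 12389 and 12483 in control cells and 7134, 5525, 10893 and 14603 after knockdown. PRC1, the crosslinker of the central spindle (not the Polycomb complex of the same name), read 5480.1, 3332, 8779 and 7945 in control cells and 3675, 4742, 9339.6 and 9929.8 after knockdown. ASPM, a spindle pole protein, read 9479, 4036, 9006 and 7859.8 in control cells and 5435, 5209, 7264 and 8789 after knockdown. In NB-39-nu these read -0.64, -0.58 and -0.80. The other, dimmer ASPM probe sets above the filter differed from it in some lines. Their ratios were -0.31, -0.44, 0.89 and -1.66, and -0.84, 0.17, -0.67 and -1.09. DLGAP5, which stabilises kinetochore fibres, read 4641, 1284, 3915 and 2034 in control cells and 2789.7, 1587, 3559.7 and 2259 after knockdown. HMMR, a spindle assembly factor, read 11804, 4815, 5897 and 6757 in control cells and 8212, 5836, 7247 and 7604 after knockdown. HMMR was lower in NB-39-nu alone, and its other 3 ratios lay close together (0.28, 0.30 and 0.17). This rests on 1 probe set: the other bright one read -0.26, 0.27, -0.037 and 0.33.

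**Figure D3:**
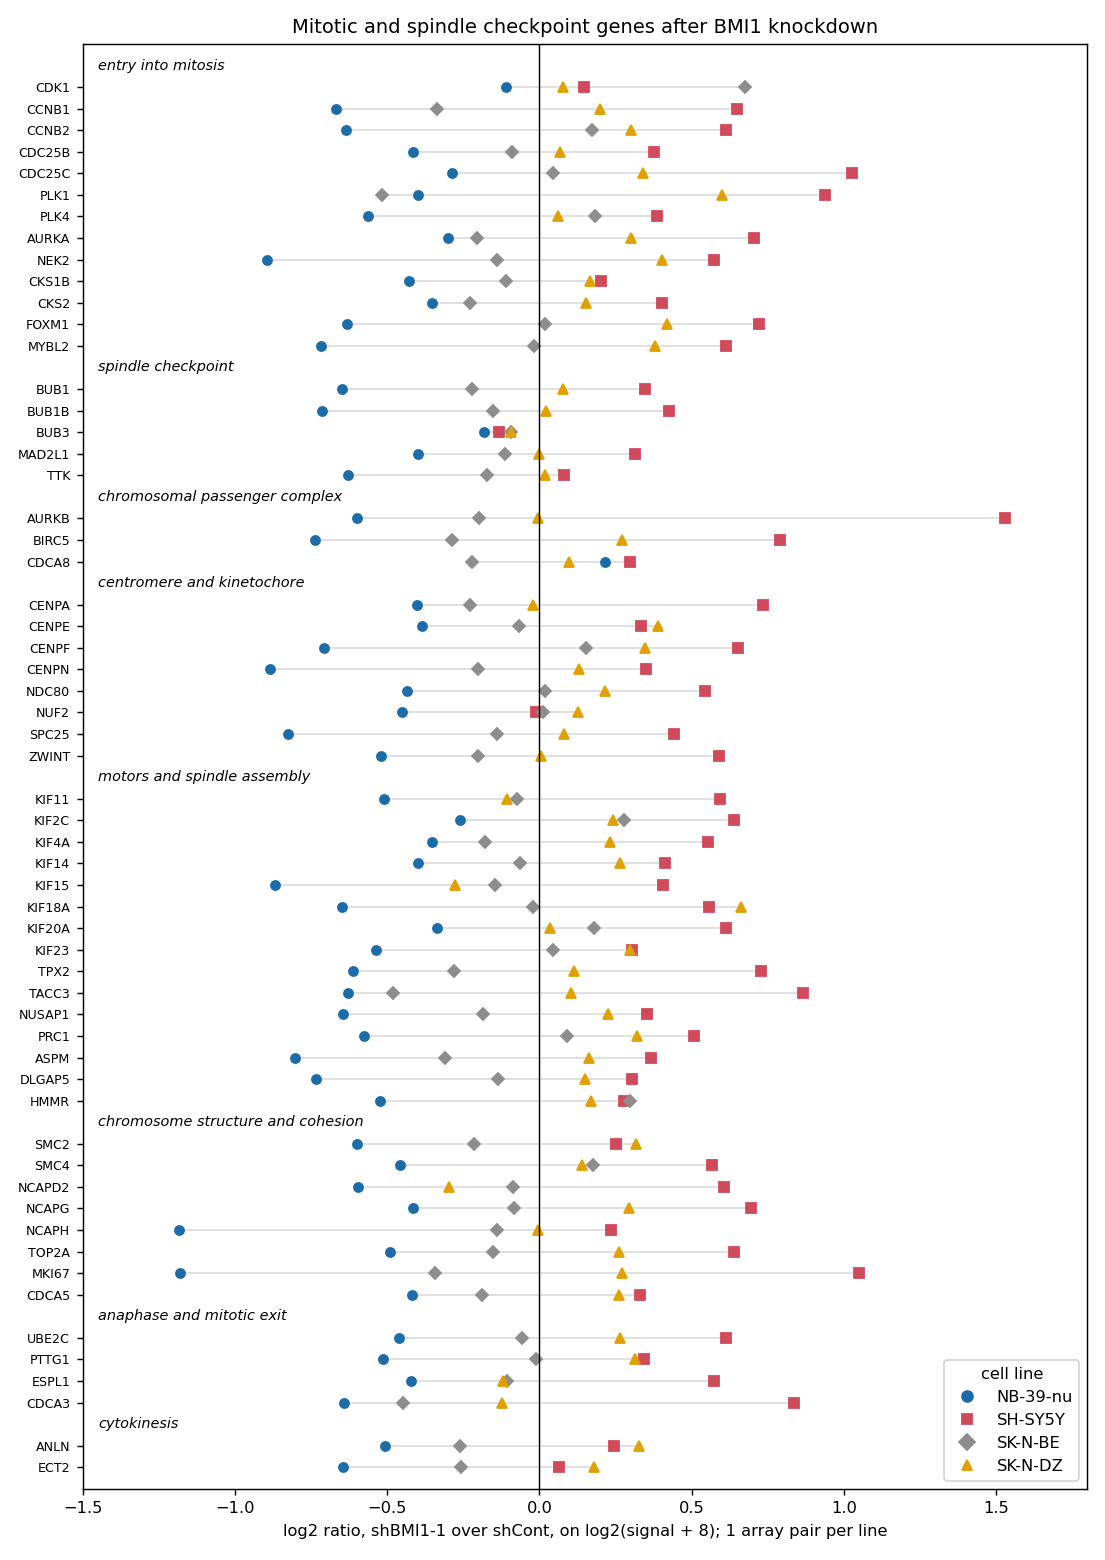
Log2 ratio of shBMI1-1 over shCont (x axis) for each of the 58 tested members (rows, grouped by role) in the 4 lines; each marker is 1 array pair and the grey line joins a gene's lowest and highest value. The NB-39-nu markers lie left of 0 for 57 members and the SH-SY5Y markers right of 0 for 56.

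The 8 genes of chromosome structure and cohesion had median ratios of -0.54, 0.59, -0.15 and 0.26, with all 8 lower in NB-39-nu and all 8 higher in SH-SY5Y. SMC2, a condensin ATPase, read 853, 1235, 1454 and 1051 in control cells and 561, 1473, 1251 and 1311 after knockdown, a control range of 1.70-fold. The other bright SMC2 probe set had ratios of -0.52, -0.020, -0.19 and -0.12. The higher SMC2 values in SH-SY5Y and SK-N-DZ therefore rest on the probe set used. SMC4, its partner, read 5255, 7085, 9882 and 10536 in control cells and 3827, 10501, 11155 and 11599.9 after knockdown. Its other bright probe set read 3298, 1628, 2889.6 and 1855 in control cells and 2270.2, 2556, 2950.3 and 2495 after knockdown. Against the mean of the other lines over all 8 arrays, SH-SY5Y differed by 0.38 for SMC2 (limma adjusted p = 0.130) and 0.10 for SMC4 (adjusted p = 0.643). Neither passed on the probe set used. The other condensin genes were lowest in SH-SY5Y among control cells. NCAPD2, a condensin I subunit, read 2597, 361, 1185 and 2507 in control cells and 1717, 554, 1115 and 2038 after knockdown. Its SH-SY5Y difference over all 8 arrays was -1.96 (limma adjusted p = 1.5e-04). NCAPG read 5568, 2609, 3773 and 5236 in control cells and 4172, 4225, 3561 and 6418 after knockdown. NCAPH, the kleisin of condensin I, read 1061, 546, 1387 and 592 in control cells and 462, 645, 1259 and 590.3 after knockdown. Its NB-39-nu ratio of -1.18 was the lowest of all tested members. Its mean of -0.27 ± 0.63 (limma adjusted p = 0.728) rested on that line: without NB-39-nu it was 0.032.

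TOP2A, the topoisomerase that untangles chromosomes, read 9074, 3083, 14051 and 8483 in control cells and 6457, 4806, 12643 and 10175 after knockdown. A dimmer bright TOP2A probe set had the same signs in NB-39-nu and SH-SY5Y and opposite signs in SK-N-BE (0.45) and SK-N-DZ (-0.89). MKI67, whose protein Ki-67 coats mitotic chromosomes and marks cycling cells, read 1947, 242, 1366 and 983 in control cells and 855, 509, 1075 and 1187 after knockdown. Among tested members it had the second lowest ratio in NB-39-nu and the second highest in SH-SY5Y, -1.18 and 1.05. Its 3 other bright probe sets read -0.70, -0.55 and -0.25 in NB-39-nu and 1.02, 0.65 and 0.81 in SH-SY5Y. CDCA5, which encodes the cohesin protector sororin, read 1612, 1064, 2481 and 2217 in control cells and 1204, 1339, 2178 and 2656 after knockdown.

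The 4 tested genes of anaphase and mitotic exit had median ratios of -0.49, 0.59, -0.081 and 0.072 and were all lower in NB-39-nu and SK-N-BE and all higher in SH-SY5Y. UBE2C, the ubiquitin-conjugating enzyme of the anaphase-promoting complex, read 16986, 3345, 10482 and 16599 in control cells and 12327, 5121, 10079.8 and 19939 after knockdown. Its ratios, -0.46, 0.61, -0.056 and 0.26, lay close to the member medians in each line. PTTG1, which encodes securin, read 27389, 7943, 20119 and 17053 in control cells and 19165, 10076, 19972 and 21193 after knockdown. ESPL1, which encodes separase, read 2409, 676, 2259 and 2542 in control cells and 1797, 1009, 2099 and 2339 after knockdown. CDCA3, a trigger of mitotic entry through WEE1 degradation, read 5209, 636, 2787 and 4637 in control cells and 3335, 1140.0, 2038 and 4258 after knockdown, a control range of 8.11-fold. CDC20, the activator of the anaphase-promoting complex, lay under the filter, at 28.7, 179, 377 and 5.78 in control cells and 5.74, 278, 387 and 53.0 after knockdown. It has 1 single-gene probe set here, so these low values have no second measurement. The 2 cytokinesis genes had median ratios of -0.58, 0.15, -0.26 and 0.25. ANLN, which encodes anillin of the contractile ring, read 6415, 2174, 8481 and 2825 in control cells and 4515, 2580.1, 7069.6 and 3549 after knockdown. ECT2, the activator of RhoA at the cleavage site, read 5286, 2440.1, 8189 and 4668 in control cells and 3378, 2548, 6850.5 and 5291 after knockdown, nearly level in SH-SY5Y (0.062).

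Further mitotic genes outside the module were also lower in NB-39-nu and higher in SH-SY5Y in the median. Of 116 named, 107 were tested, with median ratios of -0.32, 0.22, -0.13 and 0.12. In NB-39-nu 86 were lower and in SH-SY5Y 78 higher, against 47.2% and 52.4% of all tested genes. None, 0 of 107, passed the knockdown test in either direction (limma, adjusted p under 0.05). At an unadjusted p under 0.05 there were 6 of 107, against 9.33% of all tested genes. The difference from the members was not tested. In both NB-39-nu and SH-SY5Y the list with the median nearest that of all tested genes was the anaphase-promoting complex, which marks cyclin B and securin for destruction. It had medians of -0.13, 0.10, -0.067 and -0.10 over 15 tested genes. Its highest member in the mean, FBXO5, an inhibitor of the complex, was at 0.23 ± 0.57, and the lowest, ANAPC13, at -0.24 ± 0.13 (SD, n = 4 lines). The 13 cohesin genes had medians of -0.33, 0.13, -0.19 and 0.12, with SGO2, the shugoshin, highest at 0.13 ± 0.32 and the ring subunit RAD21 lowest at -0.27 ± 0.32. The 30 further kinetochore and checkpoint genes had medians of -0.43, 0.32, -0.018 and 0.18, from CENPH at -0.34 ± 0.20 to SKA3 at 0.22 ± 0.48. The 30 further spindle, condensin and cytokinesis genes had medians of -0.33, 0.40, -0.18 and 0.13, from DEPDC1 at -0.74 ± 0.61 to PSRC1 at 0.24 ± 0.36. SGO2 changed sign (-0.083) with the mean of all probe sets, and FBXO5 without SH-SY5Y (-0.026).

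The 19 tested entry regulators had medians of -0.37, 0.17, -0.13 and 0.15. CDC25A, the phosphatase of the G1/S and G2/M transitions, was highest at 0.53 ± 0.35 (SD, n = 4 lines; limma adjusted p = 0.404) and higher in 4 of 4 lines. Averaging its probe sets gave 0.19. LIN9, a MuvB subunit, was lowest at -0.59 ± 0.57 (limma adjusted p = 0.522), and at -0.34 without NB-39-nu. RBL2, which encodes the p130 partner of MuvB in quiescent cells, was chosen after its values were seen. It was lower in 4 of 4 lines, at -0.56 ± 0.25 (limma adjusted p = 0.306), with signals of 3542, 883, 2969.7 and 1569 in control cells and 2243, 571, 2577 and 916 after knockdown. CDKN1A, which encodes the CDK inhibitor p21, was also chosen after its values were seen. It read 2906, 5944, 124 and 136 in control cells and 6862, 2944, 182 and 34.4 after knockdown. Its ratios of 1.24, -1.01, 0.53 and -1.76 had the sign opposite to the member median in all 4 lines, though its signals in SK-N-BE and SK-N-DZ were dim. The share of all tested genes with this order of signs was not computed. The mean of CDKN1A was -0.25 (limma adjusted p = 0.875), and a link to the members was not tested.

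Genes of DNA replication and the G1/S transition, the nearest other cell cycle group, had median ratios of -0.57, 0.56, -0.10 and 0.15 over 42 tested genes, close to the -0.53, 0.53, -0.14 and 0.17 of the mitotic genes. In NB-39-nu 38 of 42 were lower and in SH-SY5Y 41 higher, against 47.2% and 52.4% of all tested genes. The difference between the groups was not tested, and both come from the same arrays. In their promoters the CHR hexamer was in 1 of 46 promoters of the replication genes, against 44 of 68 for the mitotic genes, while CCAAT was in 56.5%.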

How the data were processed

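RNA intensity was measured on 8 arrays. Per the submitters' processing notes, the deposited signal intensity of each probe set came from GCOS and MAS5 (versions not given). In the table the trimmed mean was the same on every array. Of 54675 probe sets, 41097 carried 1 gene in the platform annotation, 1801 several and 11777 none, and 41043 symbols were matched through RefSeq GRCh38.p14. Values were log2(signal + 8). The brightest single-gene probe set stood for its gene, and genes above the median brightness were tested. R 4.3.3 and limma 3.58.1 (eBayes with trend, Benjamini-Hochberg over all tested genes) compared shBMI1-1 with shCont, with cell line as a block, since the pairs are the same cell line; arrays correlated at 0.93 or more within a line and at most 0.89 between lines. Fits were tested on simulated data. The arrays' number limits precision. Values on every array are given for BMI1 and for members passing either test or, in each role, moving one way in all lines, or widest or narrowest in range, and here for all 60 members; each further list gives its highest and lowest mean. Related pairs are compared. Members and lists were chosen with earlier results of these data known. Alternatives covered pseudocount, filter, normalization, probe set choice, variance trend, the block and each line left out. Promoter sequences are from RefSeq.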

Additional observations from a re-analysis of the deposited data

Results flagged for a closer look

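The member medians of NB-39-nu (-0.53) and SH-SY5Y (0.53) had opposite signs under the same hairpin, and with 1 array pair per line their difference was not tested. The check covered 177 sets of 4 values, mainly the control signals, knockdown signals or ratios of 1 member. In 12 of the sets, 1 line stood apart from the other 3 by Dixon's 95% criterion, which chance meets in about 1 set in 20 (5%). The count of 12 is not far above that rate, and the sets share the same 8 arrays, so single cases may be chance. In control cells that line was SH-SY5Y, and it was low, for CCNB2 (3582), PLK1 (77.1), BUB1 (870.4), KIF4A (1146), NUSAP1 (4328) and ESPL1 (676). After knockdown SH-SY5Y was low for PTTG1 (10076). NB-39-nu was low after knockdown for the condensin ATPase genes SMC2 (561) and SMC4 (3827), and its log2 ratio for HMMR was -0.52. The other bright HMMR probe set read -0.26 there and -0.037 in SK-N-BE, and the other bright SMC4 probe set read 2270.2 in NB-39-nu and 2495 in SK-N-DZ after knockdown. SK-N-DZ was high after knockdown for CDC25C (1532) and MYBL2 (3278).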

How the results depend on the processing

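One array pair per line, 1 hairpin and unknown harvest days limit every value here. The values per line and the SH-SY5Y contrast were added after seeing the data. The knockdown test called 1 gene of all tested. It called 2 with the table median as pseudocount, with no filter, with the 75th percentile filter and with quantile normalization. It called 0 without the variance trend, when a gene's probe sets were averaged, and with no replicate block, and 0 to 2 with 1 line left out; the causes were not tested. Members called stayed at 0 in all 12 of these fits. The block by cell line changed no member's call. Line differences were 7905 genes, 4322 with the 75th percentile filter, which tests fewer genes, and 6422 to 7606 with 1 line left out; members called there ran from 39 to 55. Members lower in SH-SY5Y ran from 43 to 56. Members with 1 sign in all lines numbered 14 without NB-39-nu, 10 without SH-SY5Y, 2 without SK-N-BE and 1 without SK-N-DZ. The median over members of the mean ratio ran from -0.13 to 0.18. The NB-39-nu median stayed between -0.53 and -0.49 and that of SH-SY5Y between 0.42 and 0.54. Averaging a gene's probe sets gave CDC25C (-0.15), CDK1 (-0.020) and SGO2 (-0.083) the opposite sign. The average took in dim probe sets as well. A dim CDK1 probe set (signals 27.1 to 155) had a mean ratio of -0.48, while its other bright probe sets had 0.097 and 0.10. A dim CDC25C probe set (3.91 to 51.9) had a mean ratio of -1.20. NCAPH changed sign without NB-39-nu (0.032), FBXO5 without SH-SY5Y (-0.026), and CDKN1A without SH-SY5Y (0.0028) or SK-N-DZ (0.25). With 1 line left out the mean ran from 0.032 to 0.47 for CDC25C, 0.037 to 0.30 for CDK1, 0.028 to 0.24 for SGO2, -0.37 to -0.13 for RAD21, 0.094 to 0.45 for SKA3, 0.088 to 0.38 for PSRC1 and -0.80 to -0.34 for LIN9.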

Other observations

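Differences between lines in mitotic RNA were smaller on the knockdown arrays than on the control arrays. The median over members of NB-39-nu minus SH-SY5Y, on the log2 scale, was 1.15 in control cells and 0.24 after knockdown. The SD over the 4 lines was smaller after knockdown for 46 of 58 members (79.3%), where 56.9% of all tested genes had a smaller SD. The median SD over members was 0.73 in control and 0.56 in knockdown cells. CCNB1 spanned 3.49 between its highest and lowest line in control cells and 2.32 after knockdown, AURKB 3.18 and 1.68, and MKI67 2.97 and 1.21. SMC2, lowest in NB-39-nu in control cells, spanned 0.76 and 1.38. The control signal enters both the range and the ratio, so these values are a description and were not tested.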
